A study of Mus musculus with 12 samples.

Results

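The urea cycle and ammonia handling genes comprised 10 listed genes: Cps1, Otc, Ass1, Asl and Arg1 (the 5 enzymes of the cycle), Nags, Slc25a15, Slc25a13, Gls2 and Glul. They were listed by gene name, and each was read from the probe sets annotated to that gene alone. Of the 45037 probe sets on the array (18193 genes named alone by a probe set), 13 belonged to 9 of these genes, and 1 more was annotated to Ass1 together with Gm5424. Gls2, the liver glutaminase, was not analysed here. Where a gene had several probe sets, the brightest over the 12 arrays was used for its main values.

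RNA came from livers of C57BL/6J mice at 30 weeks of age. LDC (low-dose cadmium) mice drank water with 100 nM cadmium chloride, and control mice drank water alone. Exposure began in the dams 1 week before mating and went on in the offspring to the end. The 4 groups were LDC males, control males, LDC females and control females, with 3 biological replicates each on Affymetrix Mouse Genome 430 2.0 arrays. No source used here gave the litters, so the p-values measure the spread between these 12 livers, some of which may share a litter.

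The urea cycle turns ammonia, which is toxic to the brain, into urea for excretion. In mammals the full cycle runs in hepatocytes, mostly those near the portal vein. Its first steps lie in the mitochondria, where NAGS makes the activator of CPS1, CPS1 fixes ammonia as carbamoyl phosphate and OTC joins this to ornithine. The later steps lie in the cytosol, where ASS1 adds the nitrogen of aspartate, ASL releases arginine and ARG1 splits off urea. SLC25A15 carries ornithine and citrulline across the mitochondrial membrane, and SLC25A13 exports aspartate. GLUL, glutamine synthetase, takes up in hepatocytes around the central vein the ammonia that the cycle leaves.

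Values are MAS 5.0 signals, a brightness scaled so that the trimmed mean was 500 on every array. Median signals were 95.1 to 110, and arrays of the same group correlated with each other at mean r of 0.863 to 0.880 over all probe sets. The ratio of the 3′ to the 5′ control probe set of Gapdh, a sign of RNA quality, was 0.684 to 0.763 in LDC males against 0.766 to 0.836 in control males, with no overlap. In females the ratio was 0.729 to 0.788 with LDC against 0.742 to 0.794 in controls. That of Actb was 1.85 to 1.96 in LDC males against 1.76 to 1.98 in control males. In females it was 1.64 to 1.98 with LDC against 1.97 to 2.21 in controls. Over the probe sets tested, 1 array stood closer to the other exposure group of its sex than to its own: control female 2 had a mean r of 0.937 with LDC females and 0.926 with the remaining control females. Of 8 hepatocyte markers 6 had a probe set, with sums of 270866 to 280143 in LDC males, against 280041 to 312890 for control males, and 257046 to 278831 in LDC females, against 263110 to 299613 for control females. Neutrophil markers (9 of 10 with a probe set) stood apart by exposure in both sexes, in opposite directions. Their sums were 5631 to 5677 in LDC males against 1574 to 2776 in control males. In females they were 1304 to 2735 with LDC against 6003 to 22230 in controls. Macrophage markers summed to 23472 to 32625 in LDC males against 16364 to 16589 in control males, and in females the groups overlapped (7781 to 34959 with LDC against 19058 to 48104 in controls). Sums of lymphocyte and plasma cell markers (9 genes) also stood apart in both sexes in opposite directions, at 2159.8 to 3230.2 in LDC males against 1784 to 1946 in control males. In females these were 900.1 to 1413 with LDC against 2308 to 4365 in controls. The 6 genes of that list bright enough to be tested went both ways. Their log2 LDC effects ran from -0.50 to 0.72 in males and from -2.36 to 0.70 in females. Pancreatic acinar markers (4 genes) had lower sums in LDC males, at 1093 to 1669.5 against 2080.5 to 2512 in control males. Markers of small intestine and kidney (5 genes) had higher sums, at 4045 to 6273 against 3659.5 to 3983. Both sums overlapped in females. Only 2 genes of each list were bright enough to be tested, and in males these went both ways. Their log2 LDC effects in males were -0.999 and 0.506 for the acinar genes. For the small intestine and kidney genes they were -0.81 and 0.428. The sums therefore do not show that either list moved as a whole. Sums of adipocyte markers (4 genes) were higher in LDC females, at 49806.5 to 55337 against 43116 to 48828 in control females, and overlapped in males. Only 1 of these 4 genes was bright enough to be tested, with a log2 LDC effect of 0.18 in females and -0.10 in males, so a difference in adipocytes cannot be read from the sum. The sums for red blood cells, bile duct, endothelium and the list of stellate cells and fibroblasts overlapped by exposure in both sexes. In whole liver, fewer cells of a type and less RNA per cell cannot be told apart. The part of these other cells and of the control probe ratios in the results below was not tested.

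The first question was whether LDC altered these genes in either sex. No gene of the 9 passed an adjusted p of 0.05 in LDC males or in LDC females by limma's moderated test, beside 0.278% (males) and 0.122% (females) of the 27022 probe sets tested. At an unadjusted p under 0.05, 1 gene passed in males (Asl, with 10.2% of all probe sets) and 3 in females (Otc, Asl and Slc25a13, with 9.01%). The methods' t-test called 0 genes in either sex, also before adjustment. The difference between the male and the female LDC effect passed for 0 genes after adjustment (0.178% of probe sets) and for Otc before it (10.3%), and the mean effect over both sexes passed for 0 genes after adjustment (0.0444%) and for Asl and Slc25a13 before it (9.28%). No gene had all LDC male arrays above or all below the control male arrays, which 8.62% and 7.92% of probe sets had.

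Without Ass1, whose spread was wide, the 95% intervals of the LDC effects lay within -0.35 to 0.60 on the log2 scale in males and -0.29 to 0.60 in females. Changes beyond 0.785-fold or 1.51-fold therefore lay outside the interval of each of these 8 genes in both sexes. All 9 values were above 0 in females, with a median of 0.12, and 4 of 9 were above 0 in males, with a median of -0.01. Over all probe sets, 50.7% were above 0 in females and 50.1% in males, with medians of 0.01 and 0.00. The counts moved with single arrays and settings. In males 7 of 9 were above 0 without control male 1, 3 without control male 3 and 6 with quantile normalization. In females 7 were above 0 without control female 1, and 8 without control female 2, control female 3, LDC female 1 or LDC female 3. The count in females was also 8 with quantile normalization, with median centring and with array weights. The genes share the same 12 livers, so these counts are a description.

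**Figure D1:**
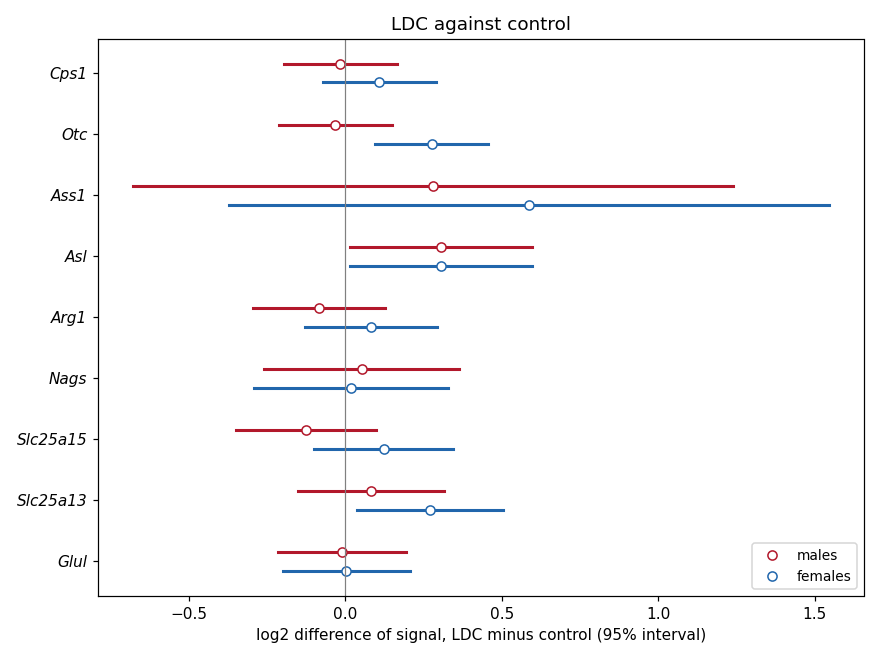
Log2 difference of signal between LDC and control mice (x axis) for the 9 genes (y axis), in males above and in females below, with lines for 95% intervals from limma. Open circles did not pass an adjusted p of 0.05, which was the case for every gene in both sexes, and the widest intervals are those of Ass1.

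Neither gene of the mitochondrial entry before Otc passed a test for LDC. Nags, which makes the activator N-acetylglutamate, had signals of 1819, 2245 and 1814 in LDC males against 1999.9, 2209.7 and 1506 in control males, and 2187, 1988 and 1857 in LDC females against 2064, 1809.99 and 2084 in control females. The arrays of both exposures overlapped in each sex, and the LDC effects were 0.05 in males and 0.02 in females (standard error 0.15 each, adjusted p = 0.945 and 0.983 from limma). Cps1, the rate-setting enzyme of ammonia entry, had 47178, 45009.9 and 41997 in LDC males against 48343, 42305 and 45151 in control males. In females it had 41092, 46985 and 42633 with LDC against 38379.7, 44143 and 38825 in controls. Its groups overlapped too, with effects of -0.02 in males and 0.11 in females (standard error 0.08 each, adjusted p = 0.968 and 0.759 from limma).

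Otc had the smallest p of the 9 genes for an LDC effect. Its signal in females was 23304, 25474 and 25931 with LDC against 20508, 22984 and 18421 in controls, so that every LDC female lay above every control female. That was also the case for 7.16% of probe sets. In males it was 24259.6, 23068 and 23846 with LDC against 25096, 24116 and 23568 in controls, and these overlapped. The effect was 0.28 in females (standard error 0.08, unadjusted p = 0.00568, adjusted p = 0.305 from limma) and -0.03 in males (adjusted p = 0.941). The difference, male minus female, was -0.31 (standard error 0.12, unadjusted p = 0.0222, adjusted p = 0.399). Mean signals were 23725 ± 605 in LDC males, 24260.1 ± 774 in control males, 24903 ± 1403 in LDC females and 20638 ± 2284 in control females (SD, n = 3 each), the control females being the lowest group.

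The other probe sets of Otc gave the same direction in females and, like the main one, passed no test after adjustment. The second (r = 0.73 with the main one over the 12 arrays) had an LDC effect of 0.32 in females (adjusted p = 0.539 from limma) and -0.04 in males (adjusted p = 0.961). The third was dim, at 468 to 569 in LDC females against 225 to 561 in control females and at 193 to 305 in LDC males against 295 to 486 in control males. Its effects were 0.58 in females and -0.62 in males, a difference of -1.20 (standard error 0.42, adjusted p = 0.360 from limma).

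Of the 10 genes, 6 had an entry in the RefSeq promoter table (build GRCm38.p6), and Asl was not among them. The stretch ahead of the first annotated base is printed for 3 genes. Otc was taken because it had the smallest p of the LDC comparisons. Slc25a13 and Glul were taken because they passed in the sex comparison averaged over exposures, and in neither exposure group alone. The stretch of Otc is chrX:10252055-10252229, plus strand, in lower case since none of the motifs searched was found in it.
Otc: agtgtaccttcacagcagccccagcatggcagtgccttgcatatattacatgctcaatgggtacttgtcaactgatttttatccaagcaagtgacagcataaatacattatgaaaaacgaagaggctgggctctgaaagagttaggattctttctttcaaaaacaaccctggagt
The table's window of 300 bases (250 before to 50 after each start) was searched for 5 motifs on both strands. Of 32851 promoter windows, 8.3% held TTCNNNGAA (a STAT5 site), 10.8% held TTGCNNAA (a C/EBP site), 37.4% held CCAAT (the CCAAT box), 13.6% held TATAAA (the TATA box) and 16.3% held AGGTCA (a nuclear receptor half-site). The Otc window was 44.3% GC with 1 CpG, where the median over all windows was 52.7% and 7 CpGs and the lower quartile of GC was 45.7%.

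In the cytosol, neither Ass1 nor Asl passed the test for LDC after adjustment. Ass1 makes argininosuccinate. Its own probe set was dim and spread widely, at 869.6, 779 and 978 in LDC males against 1225, 427 and 709 in control males, and at 729.7, 833 and 1366 in LDC females against 271, 1164 and 779 in control females. The effects of 0.28 and 0.59 had standard errors of 0.45 (adjusted p = 0.888 in males and 0.752 in females from limma), and their intervals ran from -0.68 to 1.24 in males and from -0.37 to 1.54 in females. The effect of Ass1 in females was -0.02 without control female 1, and that in males -0.10 without control male 2. The probe set annotated to Gm5424 and Ass1 together had 21226, 24102 and 21536 in LDC females against 19998, 20386 and 14014 in control females. Every LDC array lay above every control array there, as for 7.16% of all probe sets. The effect was 0.32 (standard error 0.13, adjusted p = 0.492 from limma). In males it had 21692, 21450 and 22437 with LDC against 24432, 19606 and 19293 in controls, an effect of 0.06 (adjusted p = 0.926). Neither Ass1 nor Gm5424 can be named from it.

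Asl cleaves argininosuccinate to arginine and fumarate. Its signal was 16836, 16079 and 16359.7 in LDC males against 16168, 12879.9 and 11285 in control males, and 9482, 11257 and 11116 in LDC females against 8619, 10159 and 7171 in control females. In each sex 1 control array reached into the LDC range. The LDC effect was 0.30 in males and 0.31 in females (standard error 0.14 each, unadjusted p = 0.0415 and 0.0408, adjusted p = 0.460 and 0.527 from limma), and the difference between the sexes was -0.00 (interval -0.41 to 0.41). The mean over both sexes was 0.31 (interval 0.10 to 0.51, adjusted p = 0.302). Means fell in the order LDC males, control males, LDC females, control females, at 16425 ± 383, 13444 ± 2490.3, 10618 ± 987 and 8649.7 ± 1494 (SD, n = 3 each). All control males lay above all LDC females, a pair that differs in both sex and exposure and was not tested.

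Arg1, the arginase that ends the cycle, had 33867, 36340 and 32924 in LDC males against 42005, 34166 and 33696 in control males. In females it had 31189.5, 37203 and 33022 with LDC against 31941, 34259 and 29519 in controls. The groups overlapped in both sexes, with effects of -0.09 in males and 0.08 in females (standard error 0.10 each, adjusted p = 0.832 and 0.862 from limma). The interval in females was -0.13 to 0.29.

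**Figure D2:**
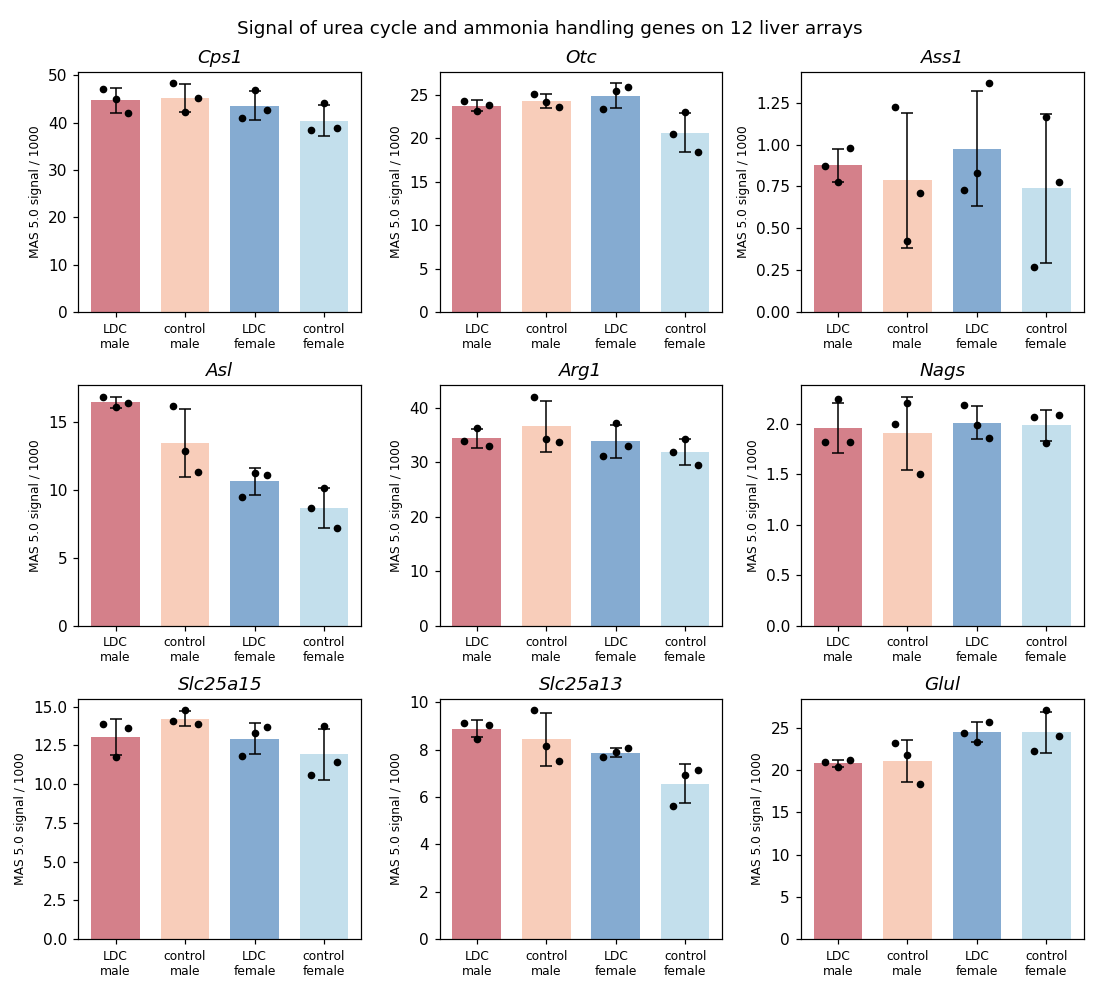
MAS 5.0 signal divided by 1000 (y axis) of the main probe set of each of the 9 genes in LDC males, control males, LDC females and control females (x axis). Points are arrays, bars are means and whiskers are SDs (n = 3 each). Asl is the gene with the largest sex difference among those called, with means of 16425 in LDC males and 10618 in LDC females.

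Neither mitochondrial carrier passed the test for LDC after adjustment. The arrays of Slc25a13 stood apart by exposure in females, and those of Slc25a15 did not. Slc25a13 encodes citrin, the aspartate/glutamate carrier of liver. It had 7687, 7884 and 8059 in LDC females against 5608, 6947 and 7128 in control females. Every LDC array lay above every control array, as for 7.16% of all probe sets. In males it had 9146, 8469 and 9025 with LDC against 9662, 8149 and 7499.9 in controls, which overlapped. The effects were 0.27 in females (standard error 0.11, unadjusted p = 0.0254, adjusted p = 0.478 from limma) and 0.08 in males (adjusted p = 0.864).

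Slc25a15, the ornithine carrier, had 13863, 11743 and 13603 in LDC males against 14063, 14772 and 13859 in control males, an effect of -0.13 (standard error 0.10, adjusted p = 0.743 from limma). In females it had 11789, 13293 and 13702 with LDC against 10608, 13766 and 11402 in controls, an effect of 0.12 (adjusted p = 0.783). Its second probe set (r = 0.80 with the main one) had 2449, 2686 and 2355 in LDC females against 1256, 2613 and 1752 in control females, an effect of 0.48 (unadjusted p = 0.0261, adjusted p = 0.478). The LDC arrays of that probe set overlapped only with control female 2.

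The stretch ahead of Slc25a13 is chr6:6217305-6217423, minus strand, shown in lower case because it held no match to the motifs. Its window of 300 bases was 65.0% GC with 17 CpGs, above the upper quartile of 61.7% GC, and held 1 CCAAT beyond the stretch printed.
Slc25a13: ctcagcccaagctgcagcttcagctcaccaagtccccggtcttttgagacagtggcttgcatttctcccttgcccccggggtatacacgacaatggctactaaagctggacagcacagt

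Glul had the smallest LDC value, in size, of the 9 genes in each sex. It had 21001, 20359.9 and 21163 in LDC males against 23180.1, 21797 and 18352 in control males, and 24429, 23345 and 25728 in LDC females against 22328, 27095 and 24086 in control females. In both sexes the LDC arrays lay inside the control range. The effects were -0.01 in males (interval -0.22 to 0.19) and 0.00 in females (interval -0.20 to 0.21), with adjusted p = 0.982 and 0.994 from limma. Its second probe set had effects of -0.03 and 0.10 (adjusted p = 0.970 and 0.910).

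The stretch ahead of Glul is chr1:153899679-153899928, plus strand. Capitals mark CCAAT, 113 and 50 bases before the start of the gene, and AGGTCA, 57 bases before it. The window was 64.3% GC with 17 CpGs and held none of the other motifs.
Glul: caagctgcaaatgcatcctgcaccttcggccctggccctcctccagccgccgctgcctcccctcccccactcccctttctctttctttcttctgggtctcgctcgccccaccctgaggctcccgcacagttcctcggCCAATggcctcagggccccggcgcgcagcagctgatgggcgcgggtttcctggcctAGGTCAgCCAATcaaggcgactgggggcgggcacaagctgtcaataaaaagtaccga

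The second question was whether males and females differed. Asl was the single gene that passed in each exposure group, higher in males. Summed markers of 2 other cell types stood apart by sex in the same direction in both exposure groups. Stellate cell and fibroblast markers (8 genes) summed to 15488 to 16442 in LDC males against 18241 to 19883 in LDC females, and to 12167 to 15613 in control males against 17201 to 29024 in control females. Red blood cell markers (3 genes) were at 1762 to 2674 in LDC males against 424 to 643 in LDC females, and at 2652 to 3892 in control males against 405 to 586 in control females. Only 1 of these 3 genes was bright enough to be tested, and it was higher in males by 1.99 (log2) in LDC mice and 2.88 in control mice. By the sums given above, the neutrophil and lymphocyte lists stood apart by sex in opposite directions in LDC and control mice, and the macrophage, acinar and adipocyte lists in control mice. Within some of these lists the tested genes went both ways. Lymphocyte genes ran from -1.17 to 2.09 (log2, male minus female) in LDC mice, and the 2 acinar genes stood at -1.50 and 1.09 in control mice. Stellate cell and fibroblast genes ran from -1.17 to 0.50 in LDC mice, and from -1.30 to -0.04 in control mice. In control mice neutrophil genes ran from -3.46 to 0.27 and macrophage genes from -1.88 to 0.17. The adipocyte list had 1 tested gene, at 0.30 in control mice. The part of all these lists in the sex differences was not tested. The male arrays of Asl all lay above the female ones, at 16079 to 16836 in LDC males against 9482 to 11257 in LDC females, and at 11285 to 16168 in control males against 7171 to 10159 in control females. The difference was 0.63 in LDC mice (1.55-fold, standard error 0.14, adjusted p = 0.0116 from limma) and 0.63 in control mice (1.55-fold, adjusted p = 0.0105). Among all probe sets, 6.29% passed in LDC mice and 7.73% in control mice. The call ended without LDC female 1 in LDC mice (adjusted p = 0.0577). In both exposure groups it ended with eBayes without a trend (0.0828 and 0.0767) and in the methods' t-test after adjustment (0.0662 and 0.311).

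Averaged over LDC and control mice, a comparison added after the data were seen, 3 of the 9 genes passed (13.3% of probe sets, 5.98% higher and 7.31% lower in males). Asl was higher in males by 0.63 (1.55-fold, interval 0.43 to 0.84, adjusted p = 0.000456 from limma), and passed without any 1 of the 12 arrays and in all 11 other alternatives (highest adjusted p = 0.0116). Slc25a13 was higher in males by 0.27 (1.20-fold, interval 0.10 to 0.43, adjusted p = 0.0325), and the call ended in 8 of 12 fits without 1 array and in 4 of 11 others (highest adjusted p = 0.193). Glul was lower in males, by -0.22 (0.856-fold, interval -0.37 to -0.08, adjusted p = 0.0400), and the call ended in 10 of 12 and in 5 of 11 (highest adjusted p = 0.517). Leaving out any of LDC male 1, LDC male 3, control male 2 and the 3 LDC females ended both calls. That of Slc25a13 also ended without control male 1 or control female 1 (highest adjusted p = 0.0725 without 1 array), and that of Glul without LDC male 2, control male 3, control female 2 or control female 3 (highest 0.0910). The second probe set of Glul differed by 0.02 (adjusted p = 0.953) and correlated with the main one at r = 0.43.

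In LDC mice the male arrays of Slc25a13 lay above all female ones (8469 to 9146 against 7687 to 8059), as 12.5% of probe sets did, and those of Glul below (20359.9 to 21163 against 23345 to 25728), as 14.4% did. In control mice Otc, Asl, Slc25a15 and Slc25a13 had every male array above every female array, as did 11.6% of probe sets. Their differences there were 0.24 for Otc (adjusted p = 0.109 from limma), 0.26 for Slc25a15 (0.152) and 0.36 for Slc25a13 (0.0576). In LDC mice these were -0.07 (0.738), 0.01 (0.963) and 0.17 (0.435). Whether the sex difference itself differed by exposure is the same contrast as the difference of the LDC effects, which passed for no gene. The second probe set of Slc25a15 was higher in control males than in control females by 0.70 (adjusted p = 0.0372), and by 0.46 on average over both exposures (adjusted p = 0.0380), while the main one stood at 0.14 on average (adjusted p = 0.252). For the remaining genes the mean sex differences were 0.09 for Otc, 0.10 for Cps1, 0.11 for Arg1, 0.04 for Ass1 and -0.06 for Nags, with adjusted p from 0.311 (Cps1) to 0.949 (Ass1). The dim probe set of Otc had 193 to 305 in LDC males against 468 to 569 in LDC females. Its difference was -1.06 in LDC mice (adjusted p = 0.05001 from limma, not passing) and 0.14 in control mice (0.848). On average it stood at -0.46 (0.180), and the remaining probe set of Otc at 0.11 (0.530). With the probe sets of a gene averaged, the mean sex difference of Otc was -0.09.

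**Figure D3:**
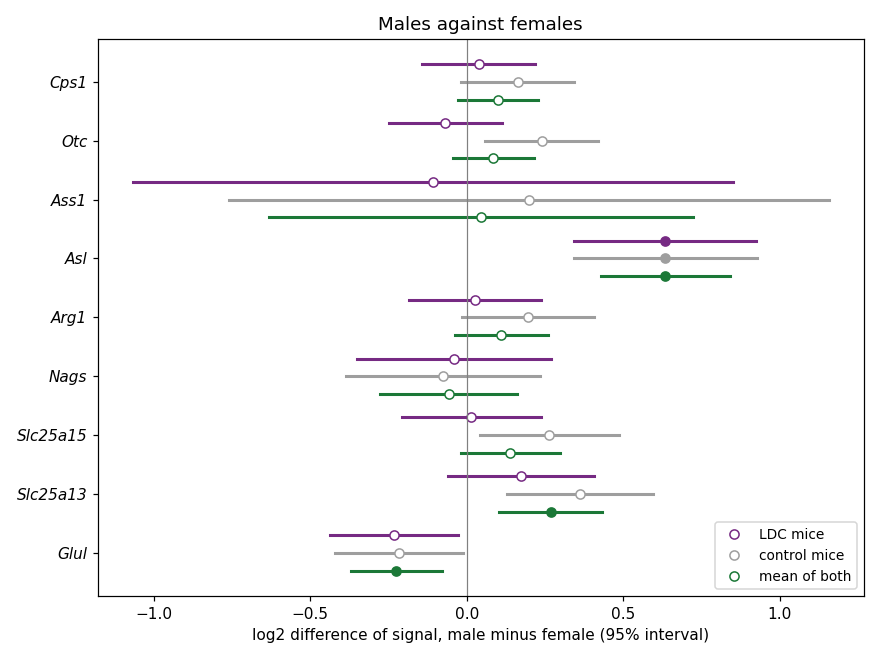
Log2 difference of signal between males and females (x axis) for the 9 genes (y axis), in LDC mice, in control mice and as the mean of both, with lines for 95% intervals from limma. Filled circles passed an adjusted p of 0.05, which Asl did in all 3 comparisons and Slc25a13 and Glul in the mean alone.

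The genes had a small spread within groups. The median SD within groups was 0.13 on the log2 scale for the 9 genes and 0.34 for all probe sets tested. The genes were brighter than most: by mean signal their main probe sets ranked from the top 0.093% of the array (Cps1) to the top 16.7% (Ass1, which spread widely). The part of brightness in this difference of spread was not tested. As deviations from group means over the 12 arrays, 32 of the 36 pairs of genes correlated above 0. All 28 pairs without Nags did, with r of 0.18 to 0.87 and a median of 0.54, which describes genes that share libraries. Control male 1 was above its group mean for 8 of the 9 genes and control male 3 below it for all 9. Control female 1 was the lowest of the 12 arrays for 4 genes and control female 3 for 3. Control female 2 was below its group mean for 1 gene.

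The spread was smaller in LDC mice than in controls for 8 of 9 genes in males, with a median SD of 0.07 against 0.18, and for 7 of 9 in females, with 0.11 against 0.16. Both held for 6 genes. Among all probe sets the SD was smaller with LDC for 54.5% in males, 57.1% in females and 31.4% in both. For Asl the SD was 383 in LDC males against 2490.3 in control males, and for Glul 425 against 2487. Slc25a15 went the other way in males, at 1156 with LDC against 479 in controls. In females Arg1 (3082 against 2370) and Nags (166 against 153) did so. These are SDs of 3 arrays and were not tested. The genes share the same arrays, so the counts are a description.

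**Figure D4:**
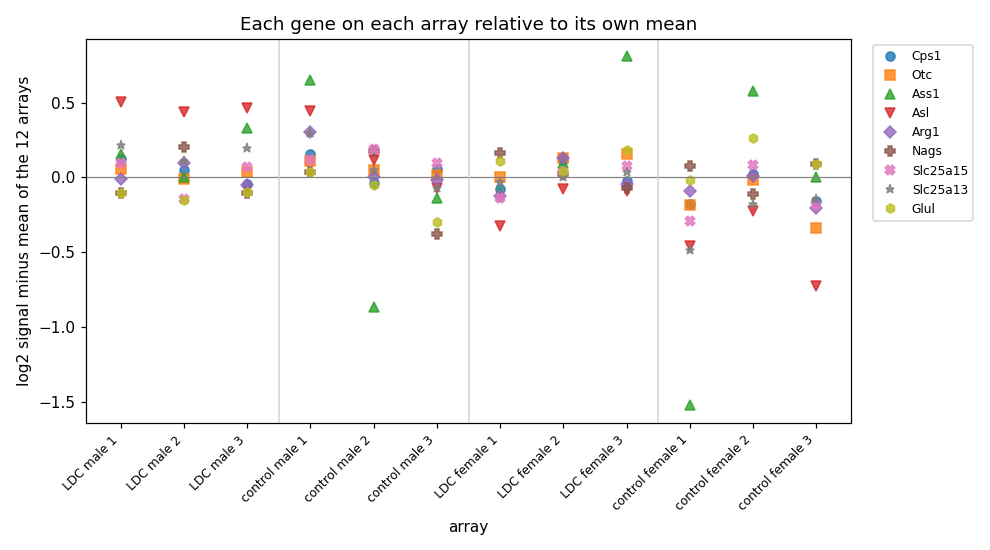
Log2 signal of each of the 9 genes minus its own mean over the 12 arrays (y axis), by array (x axis). Markers of different shape are genes, and the LDC arrays of each sex stand left of its control arrays. Asl lies above its mean on all 3 LDC male arrays and below it on all 6 female arrays, and Ass1 scatters most.

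Among 12819 other genes with a tested probe set, those whose log2 signal followed Otc most closely over the 12 arrays were Ndufb5 (r = 0.94), Cyb5a (0.93) and Atp5j (0.91). For Slc25a13 they were Acadm (0.96), Acot12 (0.95) and Decr1 (0.93), of which Acadm and Decr1 act in mitochondrial fatty acid oxidation. For Asl they were Fam47e (0.98), Coq10b (0.97) and Slc37a4 (0.96), the last being the glucose-6-phosphate transporter. All 12 arrays share these libraries, and genes alike over 12 points in 4 groups are a description.

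Genes that feed, drain or regulate the cycle were counted from 6 further lists. In LDC males and LDC females no gene passed after adjustment among 14 tested enzymes of nitrogen supply, 14 of transport and bicarbonate supply, 10 of arginine and ornithine use, 13 regulators and 14 genes of perivenous hepatocytes. At an unadjusted p under 0.05, LDC males had 1, 1, 2, 3 and 2 genes in these lists and LDC females 3, 1, 2, 3 and 3, beside 10.2% and 9.01% of all probe sets. Of 10 periportal genes 2 fell in LDC males (unadjusted too), beside 0.278% of all probe sets called, and 1 passed in LDC females before adjustment and none after it (0.122%). Cdh1, the E-cadherin of periportal hepatocytes and bile ducts, had 458, 618 and 630.2 in LDC males against 1543, 1327 and 1913 in control males, a difference of -1.49 (adjusted p = 0.00513 from limma) that held without any 1 array and ended in 2 of 13 other alternatives, eBayes without a trend and the methods' t-test (highest adjusted p = 0.380). Hsd17b6, which interconverts hydroxysteroids and ketosteroids, had 2771 ± 506 in LDC males against 7864 ± 2368 in control males (SD, n = 3 each) and fell by 1.47 (adjusted p = 0.0179). That call ended without LDC male 1, LDC male 2 or control male 3 (highest adjusted p = 0.0985), and in 3 of 13 other alternatives, those for Cdh1 and averaging the probe sets of a gene (highest adjusted p = 0.422). In females the LDC effects were -0.09 for Cdh1 and 0.25 for Hsd17b6 (adjusted p = 0.931 and 0.807 from limma). The difference of the LDC effects, male minus female, was -1.40 and -1.72 (adjusted p = 0.0598 and 0.0581), and neither passed.

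Averaged over both sexes, 6 of the 14 nitrogen supply genes were higher with LDC before adjustment (5.06% of all probe sets were), with a list median of 0.23, and none passed after it. Prodh2, which degrades hydroxyproline, had 3557, 3885 and 4185 in LDC females against 2239, 3090.4 and 2491 in control females. Its effect was 0.58 in females (unadjusted p = 0.000316, adjusted p = 0.117 from limma) and 0.20 in males (adjusted p = 0.633). Of the 12 fits without 1 array, it passed only in that without control female 2, in females (0.0204) and in the mean effect (0.0445). Among the arginine and ornithine users, Srm, the spermidine synthase, had 1551, 1114 and 1250.3 in LDC males against 889, 804 and 1138 in control males. In females it had 1079.5, 1340.2 and 1441 with LDC against 739, 726 and 796 in controls. Its mean effect was 0.62 (adjusted p = 0.0800). Aldh4a1, which makes glutamate from proline, had a mean effect of 0.29 (adjusted p = 0.443). Ddah1, which degrades methylated arginines, had 7425 ± 943 in LDC females against 5111 ± 1302 in control females (SD, n = 3 each), an effect of 0.56 (adjusted p = 0.242), and -0.18 in males (0.754). Azin2, an antizyme inhibitor, had values of 0.59 in males (0.814) and -1.06 in females (0.655). Among the carriers, Slc25a12, an aspartate/glutamate carrier, had -0.06 in males and -0.35 in females (0.938 and 0.554), Slc25a2, an ornithine carrier read from a dim probe set, 0.55 and -0.88 (0.866 and 0.787), and Slc1a2, a glutamate carrier, 0.45 and -0.29 (0.532 and 0.764).

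Among regulators and zonal genes, Foxa1, a transcription factor of liver development, had 849 ± 23.5 in LDC males against 2150.4 ± 1195 in control males (SD, n = 3 each), an effect of -1.18 (adjusted p = 0.190 from limma) that passed without control male 1 (0.0182). In females it was 0.34 (0.810). Axin2, a target of Wnt signalling, had 225 ± 35.5 in LDC females against 432 ± 26.8 in control females (SD, n = 3 each), an effect of -0.95 (0.173), and -0.37 in males (0.638). Pigr, the receptor that carries IgA across epithelia, had a mean effect of 0.17 (0.497). A further 4 genes passed for a sex difference in control mice, and did not pass in LDC mice or in the mean over exposures. Cebpa, a C/EBP transcription factor, was higher in control males, at 5528 ± 343 against 4024 ± 347 in control females (SD, n = 3 each), a difference of 0.46 (0.00650). Cyp1a2, a cytochrome P450 of drug metabolism, was higher too, at 24084 ± 515 against 16537.5 ± 1827, by 0.55 (0.00778). Tbx3, a transcription factor, was lower, at 625 ± 168 against 1411 ± 326, by -1.19 (0.00592). Cyp7a1, the rate-setting enzyme of bile acid synthesis, was lower, at 2363 ± 843 against 7486 ± 4279, by -1.59 (0.0217), a call that ended without control female 3 or control male 3 (highest adjusted p = 0.0947). In LDC mice these differences were -0.08, -0.15, 0.40 and 0.02 (adjusted p = 0.715, 0.514, 0.384 and 0.988). The change of the sex difference with LDC, the difference of the LDC effects, was -0.54 for Cebpa, -0.70 for Cyp1a2, 1.59 for Tbx3 and 1.61 for Cyp7a1 (adjusted p = 0.144, 0.119, 0.0776 and 0.340), and none passed.

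Between the sexes, averaged over exposures, 6 of the 13 regulators were higher in males and none was lower, against 5.98% of all probe sets higher. Cebpb, a transcription factor of the C/EBP family, had 14061 ± 852 in LDC males against 5703 ± 1008 in LDC females, and 11739 ± 1054 in control males against 7247 ± 1491 in control females (SD, n = 3 each), a mean difference of 1.01 (adjusted p = 1.4e-05 from limma). Creb3l3, a liver transcription factor of the fasting response, differed by 0.91 (adjusted p = 0.000896), Ppargc1a, a coactivator of gluconeogenesis, by 0.77 (0.00114), Ppara, the nuclear receptor of fatty acid oxidation, by 0.67 (0.000196), Sirt3, a mitochondrial deacetylase, by 0.51 (0.00998) and Hnf4a, a nuclear receptor that defines hepatocytes, by 0.30 (0.0170). The call of Hnf4a ended in 2 of 11 alternatives (highest adjusted p = 0.0914).

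Males had 4 of the 14 nitrogen supply genes higher and 2 lower, beside 5.98% and 7.31% of all probe sets. Got1, the cytosolic aspartate aminotransferase, had 17165 ± 946 in LDC males against 8172 ± 1167 in LDC females, and 13536 ± 2463 in control males against 7469 ± 2041 in control females (SD, n = 3 each), a mean difference of 0.98 (adjusted p = 6.68e-05 from limma). Gpt2, an alanine aminotransferase, was higher by 0.57 (adjusted p = 0.00159) and Tdo2, which opens the tryptophan ring, by 0.48 (0.000191). Asns, asparagine synthetase, was higher (adjusted p = 0.000126), at signals of 249 to 1040.4 in LDC males against 28.9 to 67.9 in LDC females and 256 to 521 in control males against 76.1 to 162 in control females. The LDC female signals lay around the filter level of 48.6 and the table holds no detection calls, so the size of that difference is uncertain. Hal, the histidase, was lower in males by -0.67 (0.00277), and Agxt, which passes the amino group of alanine to glyoxylate, by -0.42 (0.0111).

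Among the 14 transport genes, males had 4 higher (5.98% of all probe sets) and 1 lower, a share near the 7.31% of all probe sets. Slc7a2, a carrier of arginine and other cationic amino acids, was higher by 0.77 (adjusted p = 9.97e-05 from limma), Slc25a22, a mitochondrial glutamate carrier, by 0.76 (0.00097), and the amino acid carriers Slc38a2 and Slc38a4 by 0.47 (0.0167) and 0.33 (0.0154). Aqp8, a water channel that also passes ammonia, was lower by -1.71 (1.19e-05). It had 1489 ± 224 in LDC males against 5744 ± 1046 in LDC females, and 2815 ± 989 in control males against 7788 ± 2505 in control females (SD, n = 3 each). Azin1, the antizyme inhibitor, was higher in males by 0.53 (0.00346), while Gatm and Gamt, the enzymes of creatine synthesis, were lower by -0.86 (0.0394) and -0.31 (0.0490). Each of the creatine synthesis calls ended in 9 of the 12 fits without 1 array, with a highest adjusted p of 0.0992 for Gatm and 0.112 for Gamt. The 10 periportal genes split into 3 higher (Pck1, Cyp2f2 and Hsd17b13) and 3 lower (Hal, Aldh1b1 and Hsd17b6), beside 5.98% and 7.31% of all probe sets. The value of Hsd17b6, -0.77 as reported, was 0.0055 when its probe sets were averaged. Of 14 perivenous genes 1, Lgr5, was lower in males, by -0.91 (0.0164), again a share near that of all probe sets.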

How the data were processed

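Liver RNA of 12 mice was hybridised to Affymetrix Mouse Genome 430 2.0 arrays. The authors deposited MAS 5.0 signal intensity per probe set, made in GeneSpring and scaled to a trimmed mean of 500 (2% cut at each end), without detection calls. Each column of the table belonged to 1 mouse (0 columns without a sample). Of 45101 probe sets, 64 were controls, and 34958 named 1 gene, 932 several and 9211 none. Arrays carry no depth, so the number of arrays limits the precision.

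Log2 signals of all 4 groups were fitted together with limma 3.58.1 in R 4.3.3 (eBayes with trend, 8 residual degrees of freedom) over the 27022 probe sets whose mean was at or above the 40th percentile (signal 48.6), which all 13 probe sets of the 9 genes passed. P-values were adjusted over all of these by Benjamini-Hochberg, and a gene was called at an adjusted p under 0.05. A difference of 1 on the log2 scale is a 2-fold change. The script was tested on simulated data. The methods' t-test is Student's test, named there for other measurements. Alternatives were other filters, normalizations, a pseudocount of 32, other treatments of probe sets and of variance, array weights, each sex alone, a replicate block and leaving out each array.

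Members and lists were chosen with earlier results of these data known. From 6 lists (nitrogen supply, transport and bicarbonate supply, arginine and ornithine users, regulators, periportal and perivenous genes), genes were named if called in any comparison or among the 2 smallest p-values in an LDC comparison or in the difference of the LDC effects. Signals were summed over 11 marker lists (hepatocytes, macrophages, neutrophils, lymphocytes, endothelium, stellate cells and fibroblasts, bile duct, adipocytes, small intestine and kidney, pancreatic acini and red blood cells). Figures were drawn with matplotlib 3.10.9.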

Additional observations from a re-analysis of the deposited data

How the results depend on the processing

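The count of 0 genes called for LDC in males, in females, in their difference and in the mean effect stayed at 0 in every alternative run. The count for males against females in control mice was 1 as reported, 2 with the filter at the 60th percentile or with 1 probe set per gene (Asl and Slc25a13), 0 with eBayes without a trend or in the methods' t-test, and 1 to 3 over the fits that left out 1 array. It was 3 without control female 2 (Asl, Otc and Slc25a15) and 2 without control female 3 or control male 3 (Asl and Slc25a13). In LDC mice the count was 1 as reported, 0 with eBayes without a trend or in the methods' t-test, and 0 to 1 when 1 array was left out. For the mean over exposures it was 3 as reported, 1 with eBayes without a trend, and 1 to 2 when 1 array was left out. Same-numbered arrays were not more alike than others: their deviations correlated at -0.03 to 0.06 and those of other arrays at -0.08 to 0.08. With 3 arrays a group, this cannot show whether the replicate numbers paired the mice. With a replicate block the mean sex comparison called 1 gene (Asl), and the other counts were as reported. Averaging the probe sets of a gene turned the sex difference of Lgr5 in LDC mice to 0.015 and the mean sex difference of Hsd17b6 to 0.0055. Beyond the fits without 1 array, the call of Hsd17b6 in LDC males ended in 3 of 13 alternatives and that of Cdh1 in 2 of 13. Over all probe sets, calls for LDC ran from 0 to 103 in males (75 as reported) and from 0 to 106 in females (33 as reported, 106 without control female 2). For the difference of the LDC effects they ran from 10 to 78 (48 as reported), for the mean LDC effect from 0 to 39 (12), and for males against females from 7 to 2287 in control mice (2088), from 325 to 2309 in LDC mice (1701) and from 1456 to 3865 in the mean (3592). Of the mean sex differences named, Agxt, Pck1, Hsd17b13 and Hsd17b6 lost the call in 1 of 11 alternatives other than leaving out an array, and Hnf4a, Slc38a2, Slc38a4 and Lgr5 in 2 of 11. The causes were not tested. Fits of each sex alone and the methods' t-test cannot give the comparisons that pool both sexes or exposures.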
